A study of Mus musculus with 16 samples.

Results

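The genes described here are 8 cadherins, Cdh1, Cdh2, Cdh3, Cdh4, Cdh5, Cdh6, Cdh11 and Cdh13, chosen by symbol to follow cadherin switching in P19CL6 cells. P19CL6 is a mouse embryonal carcinoma subline in which dimethyl sulfoxide (DMSO) is used to start cardiac differentiation. The cadherins were represented by 18 of the 34945 probe sets that name a single gene. All 8 passed the filter on dim probe sets and stood among 10802 genes tested. Cells in growth medium without DMSO (n = 3) were compared with cells kept in 1% DMSO for 4 (n = 3), 6 (n = 2), 8 (n = 3), 10 (n = 3) or 12 days (n = 2), on 16 one-colour arrays. An interval of 48 h for medium change or passage is recorded for every sample. The series' design text calls the samples of a condition independent, and their number limits the precision. All samples come from this single cell line, and no sample kept as long without DMSO was analysed here, so DMSO and time in culture cannot be told apart.

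Cadherins are transmembrane proteins that join neighbouring cells through calcium-dependent contacts, mostly between identical molecules. Classical cadherins bind p120 catenin and beta-catenin through their cytoplasmic tail, and alpha-catenin links beta-catenin to actin. In the embryo, cells that leave the epiblast to form mesoderm exchange E-cadherin for N-cadherin, and this exchange is called cadherin switching. The members fall into type I (Cdh1 to Cdh4), type II (Cdh5, Cdh6, Cdh11) and Cdh13, which has no cytoplasmic tail and is held in the membrane by a lipid anchor.

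Signal is given on the deposited log2 scale, where a difference of 1 is a doubling. A group is called dim for a probe set when all its arrays lie under 4. A fold against a dim group is a lower bound, the brighter mean against 4. A gene was called changed when the limma adjusted p was under 0.05 and the difference was at least 1. Each error of a difference is the standard error (SE) from limma. Array medians lay between 3.16 and 3.27. Markers of the labelled cells were checked. Of 8 embryonal carcinoma markers 6 could be tested and all 6 fell on every day, where 12.9% to 19.5% of all genes were lower. Of 8 cardiac muscle markers 8 rose at days 10 and 12, where 18.5% and 22.5% of all genes were higher. The summed level of the cardiac list was 5.95 to 6.52 in growth arrays and 16.52 to 16.54 at day 12. Replicate A of day 8 stood apart. Its Pearson correlation over the array was 0.990 or more with each day 6 sample but only 0.956 and 0.967 with its own group. Calls that it decides are given without it beside the gene.

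In order of time, Cdh1 was lower and Cdh2 and Cdh11 were higher from day 4 onward. Cdh3 was higher from day 6, Cdh4 was higher at days 4 to 8 only, Cdh6 had its highest mean at day 8, and Cdh13 was higher at days 10 and 12. At day 4, 4 of the 8 members were called, where 27.0% of all genes tested were called. Of these, 3 were higher (13.3% of all genes) and 1 was lower (13.6%). At day 6, 6 members were called against 26.8% of all genes, 5 of them higher (14.0%) and 1 lower (12.9%). Each later day also called 6 members, 5 higher and 1, Cdh1, lower. The shares of all genes were 31.0% at day 8 (16% higher, 15% lower), 38.0% at day 10 (18.5% higher, 19.5% lower) and 41.9% at day 12 (22.5% higher, 19.3% lower). By the F test over the 5 days, 7 of 8 members were called, against 60.9% of all genes. Without replicate A of day 8, 6 members were called at day 4, with Cdh3 lower and Cdh6 higher as the additions, 7 at day 8, with Cdh5, and 7 at day 12, with Cdh6. Of the 10802 genes tested, 2936, 3613 and 4535 were then called at days 4, 8 and 12. The 5 comparisons share the growth arrays.

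**Figure D1:**
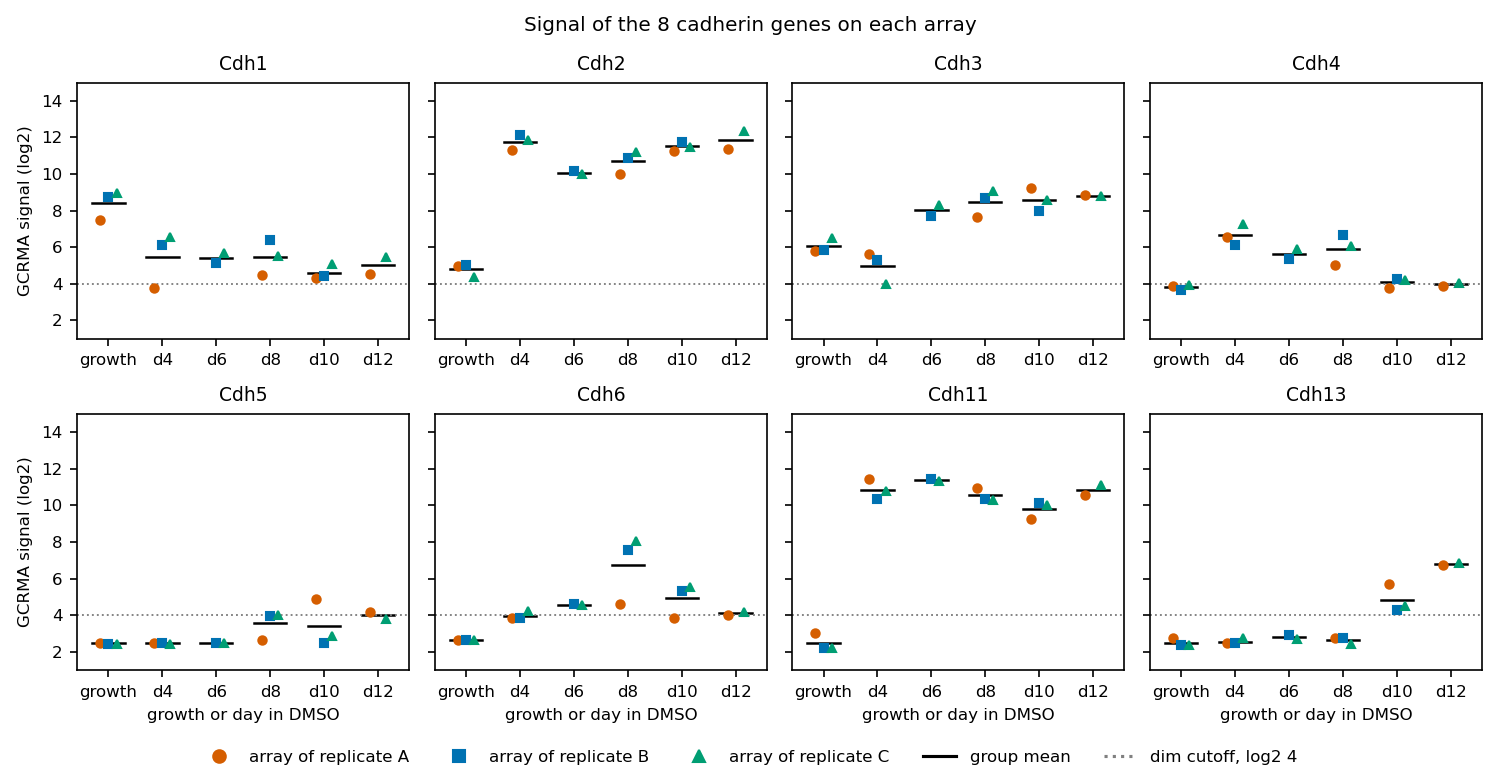
Log2 signal of the 8 cadherins (one panel each) in growth cells and after 4 to 12 days of DMSO. Points are arrays, marked by replicate letter, bars are group means and the dotted line is the dim limit of 4. Cdh1 falls and Cdh2 and Cdh11 rise between growth and day 4, and Cdh13 leaves the dim range at day 10.

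Cdh1 encodes E-cadherin, the cadherin of epithelia and of pluripotent cells. Its signal on the growth arrays of replicates A, B and C was 7.51, 8.76 and 8.94. At day 4 the same letters gave 3.76, 6.13 and 6.54. Every DMSO array lay below every growth array. Replicates B and C of day 6 gave 5.14 and 5.69, and replicates A, B and C of day 8 gave 4.50, 6.38 and 5.53. Day 10 arrays gave 4.34, 4.41 and 5.09, and day 12 arrays A and C gave 4.55 and 5.48. The DMSO groups overlapped one another at neighbouring levels.

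Cdh1 was 2.93 ± 0.65 (SE) log2 lower at day 4 than in growth, a 7.60-fold difference (adjusted p = 0.00214). The differences at later days lay between 7.63-fold lower at day 8 and 13.8-fold lower at day 10 (adjusted p = 2e-04). No comparison of neighbouring days called Cdh1. Within each of the 5 groups that hold a replicate A, that array had the lowest Cdh1 signal, which 1.57% of the genes tested also show. The embryonal carcinoma markers also fell at day 4, from a summed level of 14.82 to 15.14 in growth arrays to 10.38 to 12.64. Their sum fell further, to 9.66 to 9.99 at day 6 and 8.73 to 9.41 at day 8. The sum adds linear signals, so the brightest markers weigh most. Pou5f1 was 11.23, 8.98 and 7.51 at days 4, 6 and 8, but Sox2 stayed level at 8.30, 8.22 and 8.19. Of the 6 markers, 3 were called lower between days 4 and 6 and 0 between days 6 and 8. In either direction, 6.13% and 0.0185% of all genes were called in those steps. The Cdh1 mean also stayed level, at 5.48, 5.41 and 5.47 at days 4, 6 and 8. The marker sum was 8.79 to 9.41 at day 10 and 9.72 to 10.47 at day 12. In bulk samples fewer cells of a type and less RNA per cell cannot be told apart, and the part of cell composition in the Cdh1 difference was not tested.

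Cdh2 encodes N-cadherin, the classical cadherin of mesoderm, heart muscle and neural tissue. Its growth arrays gave 4.97, 5.05 and 4.36. At day 4 replicates A, B and C gave 11.32, 12.13 and 11.87. The lowest DMSO array lay far above the highest growth array. Day 6 gave 10.15 and 10.01, and day 8 gave 9.99, 10.86 and 11.23. Day 10 gave 11.27, 11.77 and 11.50, and day 12 gave 11.35 and 12.33.

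Cdh2 was 126-fold higher at day 4 than in growth (6.98 ± 0.34 log2, SE, adjusted p = 2.45e-09). The later differences ran from 39.0-fold at day 6 to 132-fold at day 12. Day 12 differed from day 4 by 0.07 log2 (adjusted p = 0.898). Between days 4 and 6 Cdh2 fell by 1.69 ± 0.38 log2 (SE, adjusted p = 0.0126). The second Cdh2 probe set fell by 1.90 over that interval. This fall was no longer called without replicate B (adjusted p = 0.0778) or replicate C (adjusted p = 0.124) of day 6. Of all genes, 6.13% were called between days 4 and 6. Day 8 replicate A had the lowest Cdh2 of any DMSO array, beside the day 6 values of 10.15 and 10.01. N-cadherin also marks neural cells, and of 8 neural markers 4 could be tested. At day 4, 0 of them were higher and 2 were lower (13.3% and 13.6% of all genes). At day 12, 2 of the neural markers were higher and 2 were lower (22.5% and 19.3% of all genes). Their summed level was 8.78 to 9.30 in growth, 7.55 to 8.29 at day 4 and 9.52 to 9.60 at day 12, and its part in the Cdh2 difference was not tested.

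Setting both genes against their own growth means shows the switch on single arrays. The change of Cdh2 less the change of Cdh1 lay between -0.97 and 1.07 log2 on growth arrays and between 8.94 and 11.16 at day 4. It was 7.93 to 8.62 at day 6 and 8.09 to 9.31 at day 8. It was 10.02 to 10.97 at day 10 and 10.41 to 10.46 at day 12. This is a difference of changes, since the level of one probe set cannot be set against another.

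**Figure D2:**
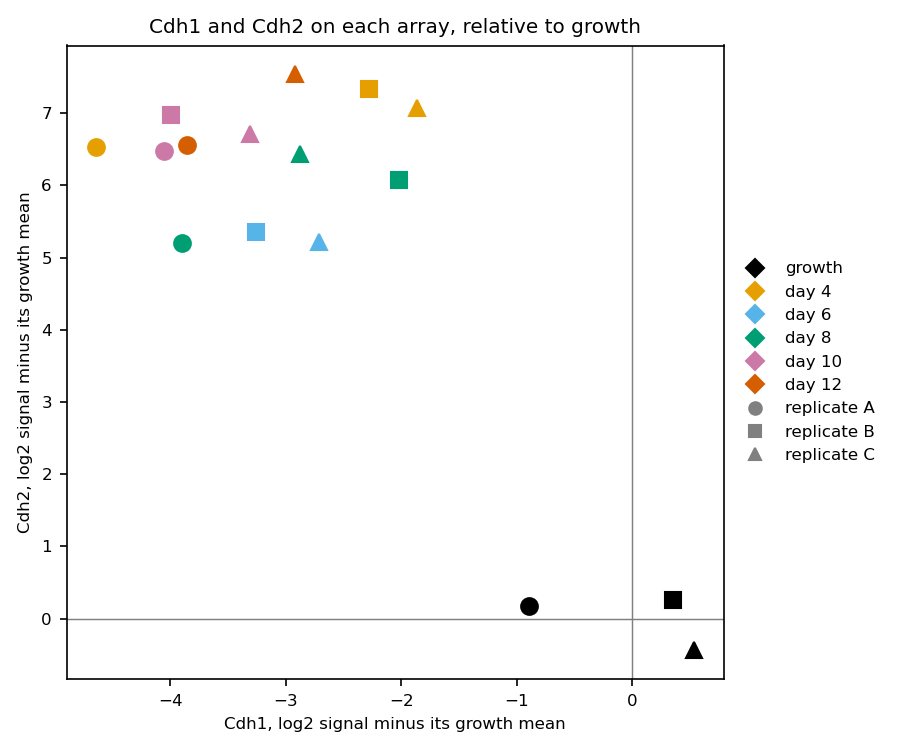
Change of Cdh1 (x axis) against change of Cdh2 (y axis) from their growth means, in log2, for each of the 16 arrays. Growth arrays lie near 0 on both axes and all DMSO arrays lie at lower Cdh1 and higher Cdh2.

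Cdh3 encodes P-cadherin, a type I cadherin of placenta and basal epithelia. In the RefSeq annotation it is the neighbour of Cdh1, with 0 protein-coding genes between them, and 5 of the 8 members lie on that chromosome. Growth arrays gave 5.80, 5.86 and 6.51, and day 4 arrays gave 5.64, 5.29 and 3.97. Those groups did not overlap, but the difference of -1.09 ± 0.45 log2 (SE) was not called (adjusted p = 0.0624). It was called without replicate A of day 8 (adjusted p = 0.0406) or without replicate A of day 4 (-1.43, adjusted p = 0.0284).

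From day 6 Cdh3 was above growth on every array. Day 6 gave 7.73 and 8.31, and day 8 gave 7.64, 8.69 and 9.05. Day 10 gave 9.26, 7.96 and 8.56, and day 12 gave 8.84 and 8.78. These groups overlapped one another. Against growth Cdh3 was 3.89-fold higher at day 6 (adjusted p = 0.00679) and 6.74-fold higher at day 12 (adjusted p = 0.000353). The day 6 call was lost without replicate C of day 6 (adjusted p = 0.0749). It was also lost with the mean of probe sets, at 0.99, short of the size required. Between days 4 and 6 Cdh3 rose 8.30-fold (3.05 ± 0.51 log2, SE, adjusted p = 0.00177), the interval in which Cdh2 fell. The call of this rise was lost when only the groups of days 4 and 6 were fitted (adjusted p = 0.0516). Cdh1 changed by -0.06 in that interval (adjusted p = 1).

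Cdh4 encodes R-cadherin, first described in retina and present in developing brain and kidney. All 3 growth arrays were dim, at 3.91, 3.67 and 3.91. Day 4 gave 6.54, 6.10 and 7.28, day 6 gave 5.37 and 5.89, and day 8 gave 5.0, 6.68 and 6.05. No array of these days overlapped with growth. Day 10 gave 3.75, 4.24 and 4.23 and day 12 gave 3.90 and 4.06, both overlapping with growth.

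Cdh4 was at least 6.24-fold higher at day 4 than in growth (2.81 ± 0.37 log2, SE, adjusted p = 3.26e-05), at least 3.10-fold at day 6 and at least 3.76-fold at day 8. It fell by 1.84 ± 0.37 log2 (SE) between days 8 and 10 (adjusted p = 0.00513). That call was lost with the second probe set (-0.91, adjusted p = 0.103) and when only those groups were fitted (adjusted p = 0.0669). At day 12 Cdh4 was 2.67 log2 below day 4 (adjusted p = 0.000142), and no fold is given because the day 12 mean of 3.98 lay under the dim limit. Between days 8 and 10, 2 members were called, Cdh4 lower and Cdh13 higher, against 7.81% of all genes.

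Cdh11 is a type II cadherin of mesenchyme, also known as OB-cadherin. It was dim in growth, at 3.04, 2.19 and 2.19. Day 4 gave 11.45, 10.36 and 10.78 and day 6 gave 11.43 and 11.30. No DMSO array came near the growth arrays. Day 8 gave 10.98, 10.33 and 10.31, day 10 gave 9.27, 10.11 and 9.99, and day 12 gave 10.54 and 11.11. Day 10 was the lowest DMSO group and did not overlap with day 8 or day 12, but neither difference was called.

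The day 4 level was at least 116-fold above growth (8.39 ± 0.33 log2, SE, adjusted p = 3.8e-10). The bound was 165-fold at day 6, 93.1-fold at day 8, 55.4-fold at day 10 and 113-fold at day 12. The second Cdh11 probe set gave smaller differences from growth, 3.27 at day 4, 3.44 at day 6, 1.88 at day 8, 0.54 at day 10 and 1.95 at day 12. The day 10 difference of that probe set was not called (adjusted p = 0.337). The size of the Cdh11 difference thus depends on the probe set at every day, early days included.

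Cdh6 is a type II cadherin of developing kidney and of the neural folds, also known as K-cadherin. It is the only member with an entry in the RefSeq promoter table. The 250 bases before the start used there (GRCm38.p6, chr15:13173676-13173925, minus strand) are shown because the genes below include factors that bind E-boxes. The annotated span of the gene, 13028699 to 13176407, includes this window, so the start used is not the outermost one. Capitals mark every match on either strand to the E-box CANNTG and to the GC box GGGCGG.
Cdh6: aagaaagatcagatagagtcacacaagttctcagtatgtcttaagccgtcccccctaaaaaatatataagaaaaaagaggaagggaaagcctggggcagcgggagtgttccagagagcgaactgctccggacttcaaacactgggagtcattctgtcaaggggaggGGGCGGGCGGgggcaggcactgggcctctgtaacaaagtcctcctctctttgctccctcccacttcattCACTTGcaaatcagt
The window holds 1 E-box, which begins at position -15 relative to the start used, and 2 GC boxes that overlap each other. Of 32851 promoter windows of that length, 66.2% hold CANNTG and 32.7% hold GGGCGG. The letters CACCTG, on either strand, are not in this window and are in 17.2% of the windows. These matches are letters only and were not tested for binding.

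Cdh6 growth arrays were dim, at 2.66, 2.62 and 2.63. Day 4 gave 3.82, 3.84 and 4.24, and day 6 gave 4.60 and 4.56. At day 8 replicates A, B and C gave 4.61, 7.55 and 8.07. Replicate A of day 8 thus lay at the day 6 level, and the other replicates were the highest of all arrays. Day 10 gave 3.87, 5.32 and 5.56 and day 12 gave 4.03 and 4.18.

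With all arrays, Cdh6 was at least 6.70-fold higher at day 8 than in growth (4.11 ± 0.67 log2, SE, adjusted p = 0.000171) and at least 1.89-fold higher at day 10 (adjusted p = 0.00918). With values under 4 set to 4, the day 10 difference was 0.96 and was not called (adjusted p = 0.234). The day 6 difference of 1.94 was called narrowly (adjusted p = 0.0489), and 17 of 27 other settings lost it. Neither the rise from day 6 to day 8 (2.16, adjusted p = 0.328) nor the decline from day 8 to day 10 (-1.83, adjusted p = 0.078) was called. Between days 6 and 8 limma called 0 members, 2 had an unadjusted p under 0.05, and 0.0185% of all genes were called.

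Without replicate A, the day 8 mean of Cdh6 was 7.81 ± 0.37 (SD, n = 2), at least 14-fold above growth (adjusted p = 2.18e-07). The differences from growth at day 4 (1.33, adjusted p = 0.00528) and day 12 (1.47, adjusted p = 0.00421) were also called then, where with all arrays they were not (adjusted p = 0.117 and 0.102). The rise from day 6 was then 3.23 ± 0.41 log2 (SE, adjusted p = 0.000378) and the later fall was -2.90 ± 0.38 log2 (SE, adjusted p = 0.00045). With all arrays, the fall from day 8 to day 10 was called narrowly with the second probe set (adjusted p = 0.0488). That probe set was above 4 on 2 arrays only, at 4.01 and 4.42 in replicates B and C of day 8. It passed the filter only through these arrays, which also make the peak. Its call is therefore no separate evidence for the fall. Summed marker levels also differed within day 8. The cardiac list was 9.63 on replicate A and 12.82 and 13.41 on B and C, and the smooth muscle list was 8.03, 11.23 and 12.60. Their part in the Cdh6 peak was not tested.

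Cdh5 encodes VE-cadherin, the cadherin of endothelial cells. It was dim on all arrays of growth (2.43 to 2.48), day 4 (2.43 to 2.49) and day 6 (2.47 to 2.50). It passed 4 on 3 arrays, replicate C of day 8 (4.03), replicate A of day 10 (4.88) and replicate A of day 12 (4.18). Replicates of a group disagreed, since day 10 replicates B and C gave 2.48 and 2.87. The day 12 difference of 1.53 ± 0.54 log2 (SE) was called (adjusted p = 0.0255), but the day 12 mean of 3.99 lay under the dim limit and no fold is given. With values under 4 set to 4, that difference was 0.09 (adjusted p = 0.753). At day 8 the difference was 1.10 (adjusted p = 0.0725), and without replicate A of day 8 it was called (1.54, adjusted p = 0.0174). The F test did not call Cdh5 (adjusted p = 0.0547).

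Of 12 endothelial markers 7 could be tested. At day 12, 4 of them were higher and 1 was lower than in growth (22.5% and 19.3% of all genes). Kdr, a receptor of vascular endothelial growth factor also found on early mesoderm, was 2.32 in growth and 8.88 at day 4. Tek, the receptor of angiopoietins, was 2.97 in growth and 8.00 at day 10. Pecam1, an endothelial surface protein named here after its values were seen, was 2.82 in growth and 4.12 at day 12, its only called day. Flt1, another receptor of that growth factor, fell from 8.44 in growth to 5.31 at day 12. The summed level of the list was 9.54 to 9.91 in growth and 9.53 to 9.86 at day 12.

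Cdh13 encodes T-cadherin, which binds adiponectin and is known from heart and vessels. Its growth arrays were dim, at 2.76, 2.37 and 2.38, and so were all arrays of days 4, 6 and 8, which lay between 2.40 and 2.89. Day 10 replicates A, B and C gave 5.68, 4.26 and 4.52. Day 12 gave 6.74 and 6.87. The groups through day 8 overlapped, and days 10 and 12 stood above them and apart from each other.

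Cdh13 was at least 1.76-fold higher at day 10 than in growth (2.32 ± 0.28 log2, SE, adjusted p = 1.07e-05) and at least 7-fold higher at day 12 (4.31 ± 0.32 log2, SE, adjusted p = 1.24e-07). It rose a further 3.97-fold between days 10 and 12 (adjusted p = 0.00222), the only member called there, against 3.06% of all genes. Another Cdh13 probe set gave differences from growth of 2.97 at day 10 and 4.16 at day 12, and its step between those days (1.19, adjusted p = 0.092) was not called. The step was also not called when only those groups were fitted (adjusted p = 0.12). A further one has the highest mean of the gene's probe sets (3.94) but was above 4 on 1 array only, replicate A of day 12 (5.54), so it failed the filter and the next was used. With no filter that probe set stands for the gene, and its differences of 0.14 at day 10 (adjusted p = 0.916) and 0.99 at day 12 (adjusted p = 0.0408) were not called. With values under 4 set to 4, the day 10 difference of the tested probe set was 0.82 (adjusted p = 0.0152), short of the size required. At day 12 all tested markers of 4 lists were higher than in growth, against 22.5% of all genes. These were cardiac muscle (8 of 8 listed), smooth muscle (5 of 6), epicardium and mesothelium (5 of 7) and endoderm (5 of 8). Some, such as Tcf21 and Afp, were dim in growth and passed the filter only through late arrays. The filter thus partly sets these counts, and the share of all genes is no like comparison. The summed level of the epicardial list was 4.87 to 4.94 in growth and 11.12 to 11.13 at day 12. Their part in the Cdh13 rise was not tested.

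**Figure D3:**
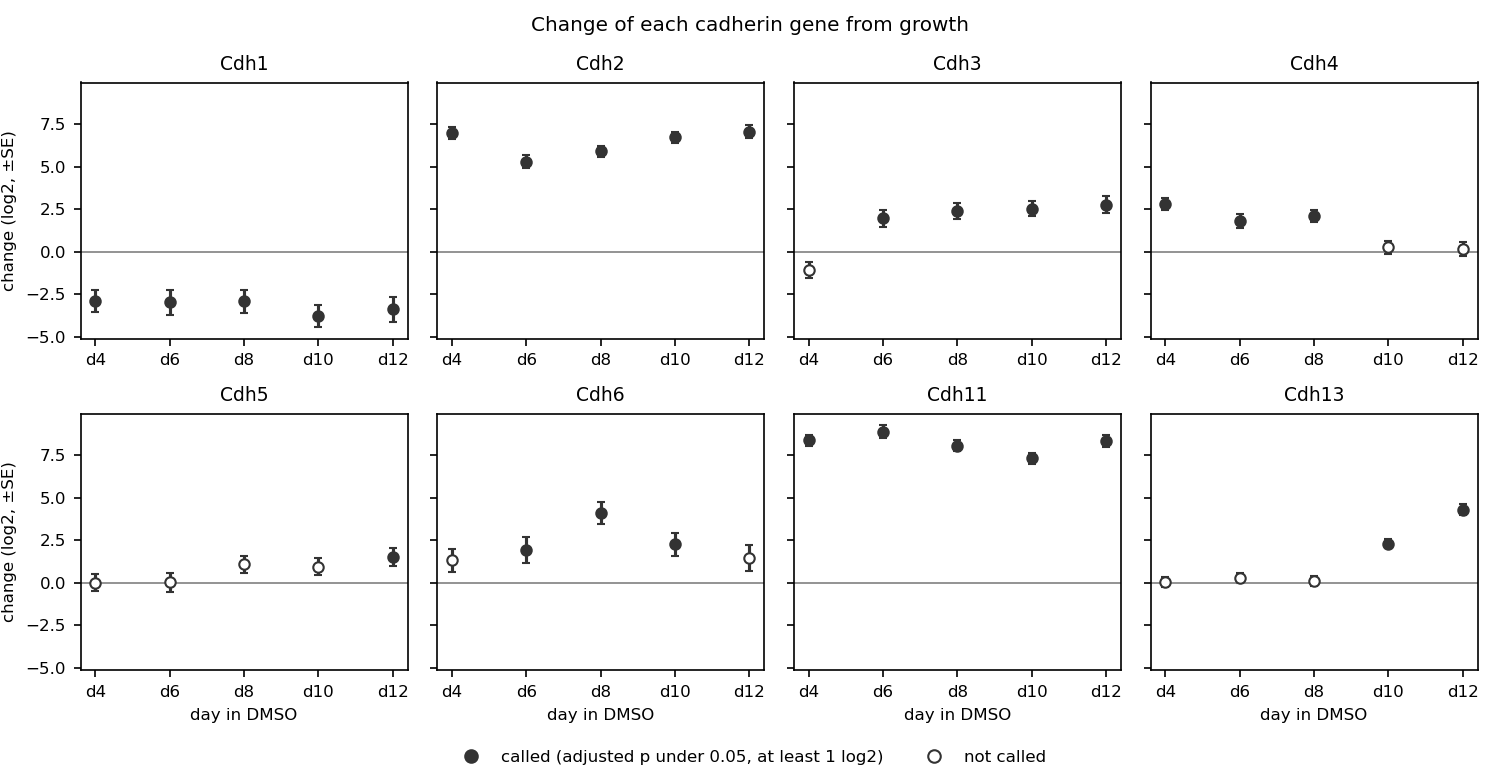
Change of each cadherin from growth (log2, y axis) by day of DMSO (x axis), with bars for the limma standard error and open symbols where the difference was not called. By their tested probe sets, Cdh2 and Cdh11 stay at least 5 log2 above growth, Cdh4 returns to near 0 at day 10, and Cdh13 leaves 0 at day 10.

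Second probe sets bear on these sizes. The Cdh2 pair ran in parallel. The second probe sets of Cdh3 and Cdh5 were under 4 on every array and failed the filter. Their group means were 2.81 to 2.89 for Cdh3 and 2.18 to 2.21 for Cdh5. The second Cdh4 probe set gave 2.32 at day 4 but 0.57 at day 6 and 0.99 at day 8, neither of them called, and fell by 1.74 between days 4 and 6 (adjusted p = 0.0148), where the tested one fell by 1.01 without a call (adjusted p = 0.18). The second Cdh6 probe set differed from growth by 1.04 at day 8 and by 0.04 at day 10. Over the 8 members the median difference from growth was 0.69 at day 4 and 2.30 at day 10, where the median of all genes lay at 0.00 and -0.02. Groups did not overlap with growth for 6 members at day 4, where 58.1% of all genes did not overlap, and for 7 at day 12, where 73.4% did not. Between days 4 and 12, Cdh3, Cdh5 and Cdh13 were called higher and Cdh4 lower, 4 of 8 members against 32.2% of all genes. The Cdh5 call there was lost in 9 of 24 other settings, among them values under 4 set to 4 (0.09, adjusted p = 0.775) and leaving out any array of either day.

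**Figure D4:**
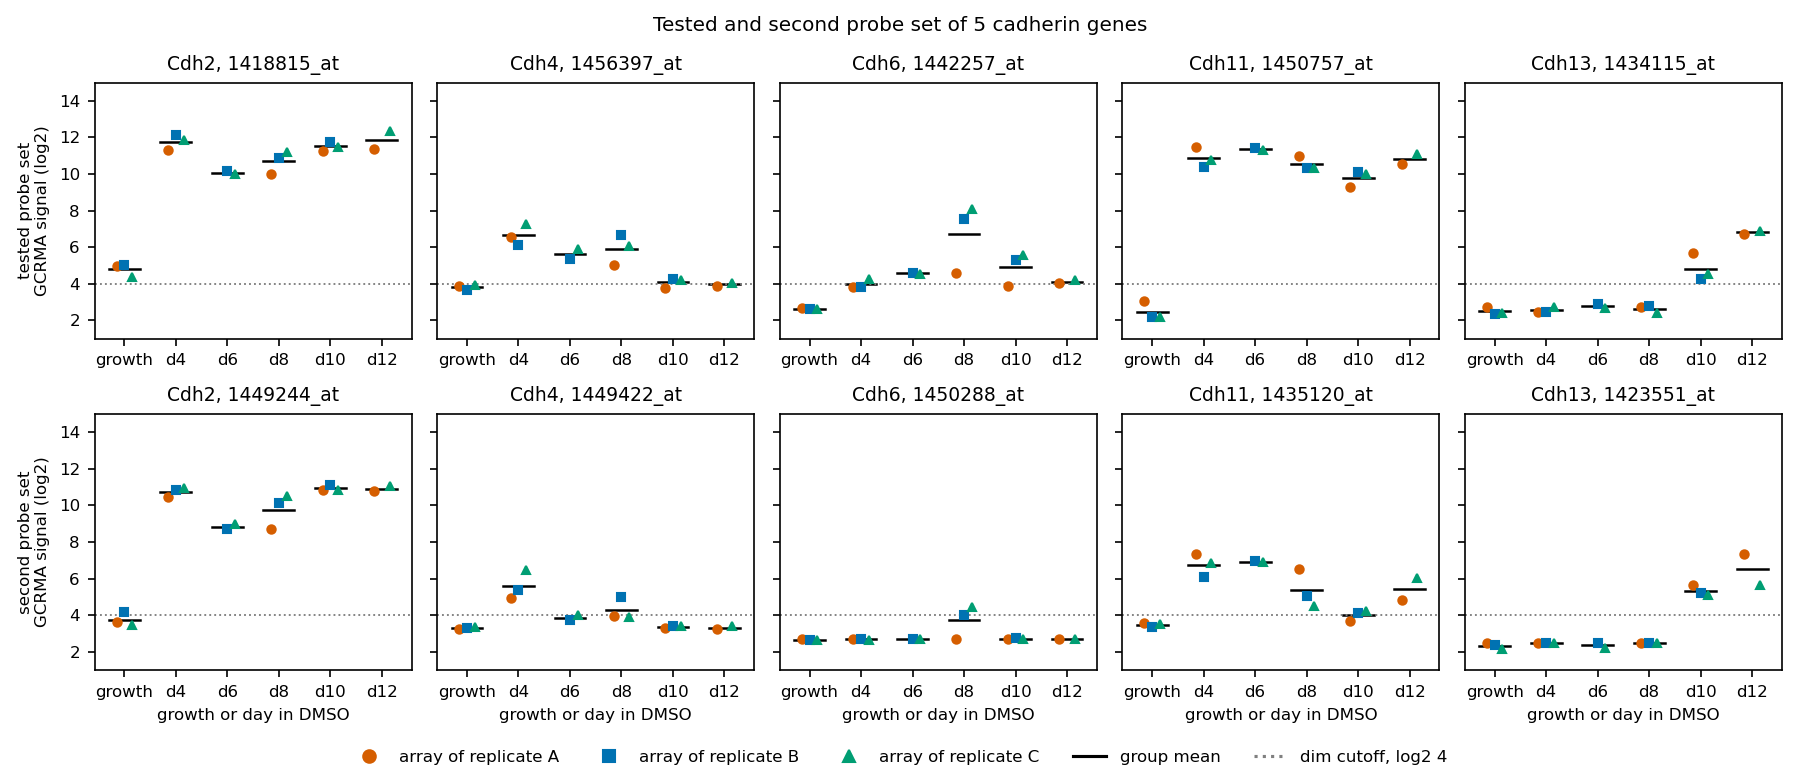
Log2 signal of the tested and the second probe set (y axis) in each group (x axis) for the 5 cadherins that have 2 informative probe sets. Points are arrays, horizontal bars are group means and the dotted line is the dim limit. The pair of Cdh2 moves in parallel, and the second Cdh11 probe set falls to near the dim limit at day 10.

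Factors that repress Cdh1 were followed as a list of 11 genes, of which 8 could be tested. At day 4, 4 rose, where 13.3% of all genes were called higher, and the list's median difference was 0.92 where that of all genes was 0.00. At days 6, 8 and 12, 4 rose, and at day 10, 3 rose. None was lower at any day by limma, with 0 lower at an unadjusted p under 0.05. Snai1, a zinc finger repressor of Cdh1, was 2.92 in growth, 10.39 at day 4 and 3.31 at day 12. Its day 4 level was at least 84.0-fold above growth (adjusted p = 1.02e-07), and it was no longer called at day 10. Its paralog Snai2 was 3.78 in growth, 5.61 at day 4, 11.30 at day 6 and 11.65 at day 8. Gsc, also among the 4 that rose at day 4, was 3.77 in growth, 6.66 at day 4 and 2.89 at day 6. Twist1, a helix-loop-helix factor of mesenchyme, was dim at day 4 and at 6.23 on day 6. Zeb1, a zinc finger homeobox repressor, was 7.36 in growth, 7.92 at day 4 and 9.27 at day 10, and was called from day 6. Zeb2, its paralog, was 5.58 in growth and 6.76 at day 4, and was called at days 4 and 12. Cdh1 itself was called lower on all of these days.

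Of 18 catenins and other cytoplasmic partners 16 could be tested, and 4 rose and 2 fell at day 4, where 13.3% of all genes were called higher and 13.6% lower. Ctnna1, alpha-E-catenin, was 11.01 in growth and 12.49 at day 4 (2.78-fold, adjusted p = 1.16e-05). Ctnnb1, beta-catenin, was 13.06 in growth and 13.37 to 13.51 in DMSO groups, never reaching the size required. Ctnnd1, p120 catenin, was 7.93 in growth and 8.81 at day 10, also short of it. Jup, plakoglobin, a catenin found in both adherens junctions and desmosomes, was 5.06 in growth and 7.92 at day 12 (7.25-fold, adjusted p = 2.05e-06). Ctnnd2, the delta-catenin of neural tissue, was 3.84 in growth and 7.05 at day 8. Lima1, an actin-binding partner of alpha-catenin, fell on every day and was 5.01-fold lower at day 4.

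**Figure D5:**
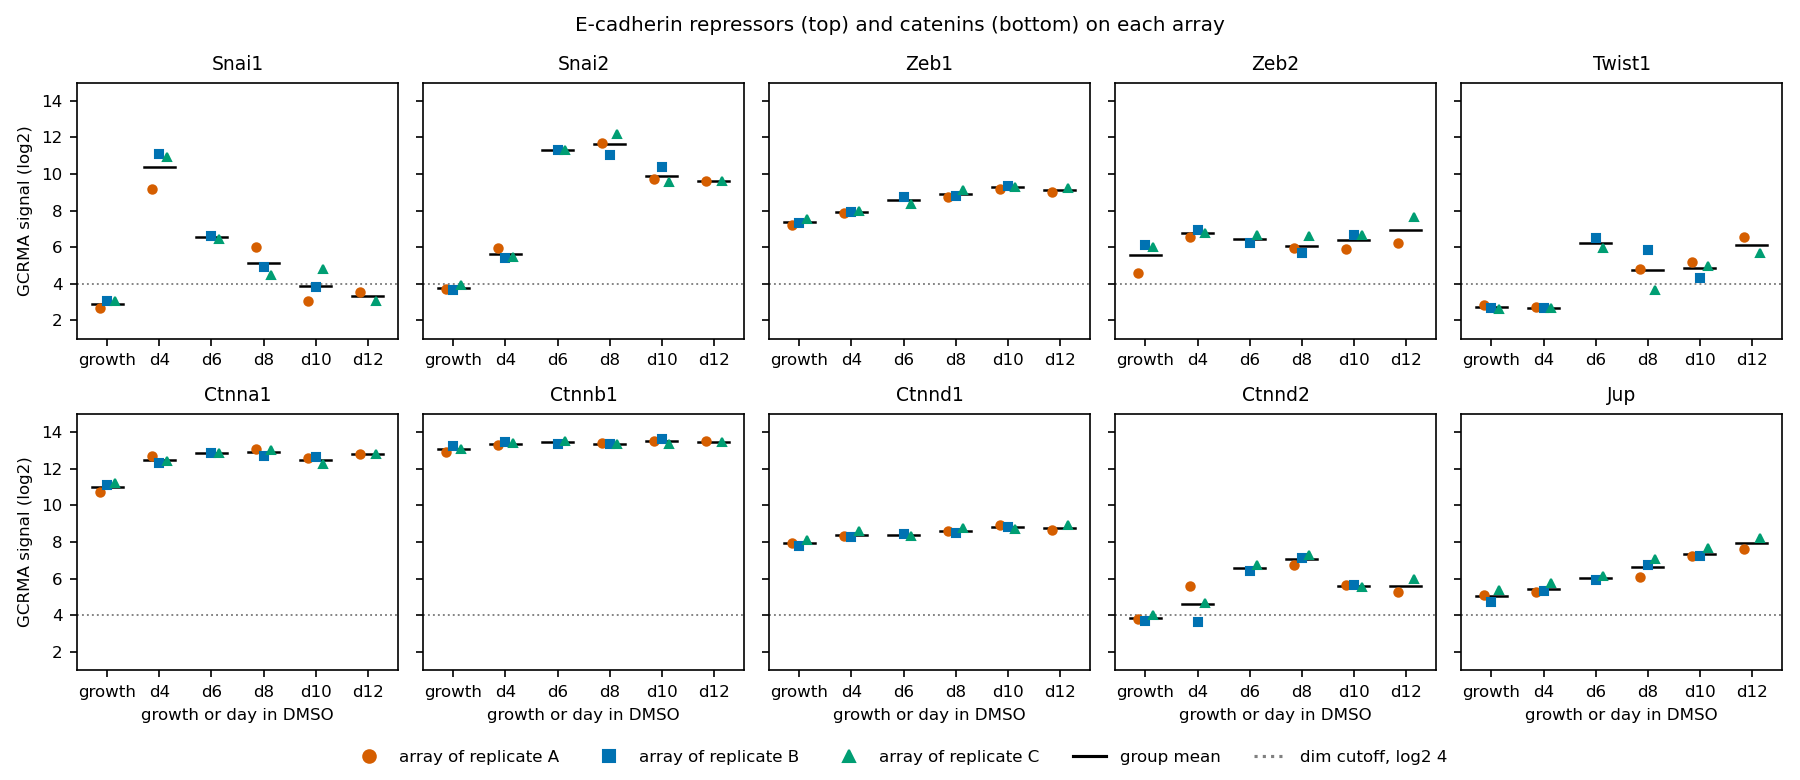
Log2 signal (y axis) in growth and DMSO groups (x axis) of factors that repress Cdh1 and of catenins, with points for arrays, horizontal bars for group means and a dotted line at the dim limit. Snai1 is highest at day 4, Snai2 at day 8, and Ctnnb1 lies between 13.06 and 13.51 as a mean throughout.

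Genes that accompany Cdh1 in epithelia did not move as a single group. Of 13 such genes 11 could be tested, with 6 lower and 1 higher at day 4 and 6 lower and 3 higher at day 6. Of all genes 13.6% were called lower and 13.3% higher at day 4, and 12.9% lower and 14.0% higher at day 6. Epcam, an epithelial adhesion protein, was 12.14 in growth and 8.40 at day 4 (13.3-fold lower, adjusted p = 3.44e-05). Esrp1, an epithelial splicing regulator, was 7.05 in growth and dim in all DMSO groups, at least 8.26-fold lower. Cldn6, a claudin of tight junctions, was 7.01 in growth and dim at day 4. Dsp, desmoplakin, rose from 5.52 in growth to 9.58 at day 4. Krt8, a keratin of simple epithelia, was 8.40 at day 4 and 12.93 at day 6, the interval in which Cdh3 rose. Its partner keratin Krt18 was 7.16 at day 4 and 11.96 at day 6. Day 4 replicates A, B and C disagreed, at 10.24, 6.83 and 8.13 for Krt8 and 9.26, 4.98 and 7.23 for Krt18.

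Genes of cadherin cleavage and turnover were also followed, 13 of 14 tested. At day 4, 4 rose and 0 fell by limma, with 1 lower at an unadjusted p under 0.05. Of all genes, 13.3% were called higher and 13.6% lower. Furin and Pcsk5, convertases of the family that removes the cadherin prodomain, were 4.43 and 3.39 in growth and 5.97 and 7.61 at day 4. Mmp2, a matrix metalloprotease, was 6.84 in growth and 8.60 at day 4. Adam10, a protease that sheds the outer part of E- and N-cadherin, was 7.88 in growth, 9.88 at day 4 and 11.11 at day 12 (9.38-fold, adjusted p = 5.11e-06).

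The genes nearest to each cadherin by Pearson correlation over the 16 arrays are given as a description, since the arrays share groups. For Cdh1 they were Sox2 (0.95), Cry1 (0.94) and Bcl7b (0.93). For Cdh2 they were Kitl, Mylip and Rhobtb3, each at 0.98. Cdh3 was nearest to Sri (0.96), Fam114a1 (0.95) and Lgals1 (0.95). Cdh4 was nearest to Rbm15b (0.92), Tnpo2 (0.92) and Cdx2 (0.91), and Cdx2 itself was 2.93 in growth, 8.93 at day 4 and 3.26 at day 10. Cdh6 was nearest to Bsdc1 (0.92), Slc30a5 (0.90) and Bet1l (0.90). Cdh11 was nearest to Phlda1, Mex3b and Prdm6, each at 0.99. Cdh13 was nearest to Ampd3, Hpgd and Shox2, each at 0.99, and Shox2 was 2.46 in growth, 5.87 at day 10 and 9.09 at day 12.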

How the data were processed

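Total RNA signal was read from 16 arrays. The deposited log2 values, 1 per probe set, were made by the authors with GCRMA background correction and normalization, per the submitters' processing notes. They lie between 0.863 and 15.9, and the base was read from this range, as it is not given in the sources used here. Gene names come from the platform annotation: 34945 of 45101 probe sets name 1 gene, 932 several and 9160 none, and 64 are controls. Probe sets above 4 on at least 2 arrays were kept, and the one with the highest mean stood for its gene, leaving 10802 genes. All arrays entered a single limma 3.58.1 fit (R 4.3.3) with 1 mean per group, empirical Bayes variances (10 residual and 3.53 prior degrees of freedom) and 10 contrasts, with Benjamini-Hochberg adjustment over all genes. The scripts were tested on simulated data. Members, lists and markers were chosen with earlier results of these data known. The text names all members and called genes of each list, chosen mainly by size of change in the contrast described, so some changes of similar size are not named. It also names 5 repressors and 4 catenins in every case, and the 3 genes most correlated with each member called by the F test. The 14 lists hold 163 genes, 158 of them on the array. Sequences are from RefSeq (GRCm38.p6). Alternatives covered the filter, scaling, floor, probe set, samples fitted, replicate block and left-out arrays.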

Additional observations from a re-analysis of the deposited data

How the results depend on the processing

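Over 27 other settings the 37 member calls gave 982 rechecks, of which 921 kept direction and call, 59 lost the call and 2 reversed; 21 calls were never lost. The reversals concerned Cdh13 from day 8 to day 10, at -0.0336 with no filter and -0.0804 after a further quantile normalization, where another probe set stands for the gene. After quantile normalization Cdh13 was not called against growth either, at 0.03 at day 10 and 0.75 at day 12. The uncalled Cdh4 difference at day 12 turned to -0.0876 after quantile normalization. Called members at day 6 against growth fell to 3 with the mean of probe sets. Between days 6 and 4, fitting only the compared groups gave 415 genes and 1 member, and leaving out single arrays gave 309 to 799 genes and 1 to 2 members. Between days 8 and 6, the count of 2 genes became 1 with no filter, 8 with quantile, 1 with a common median, 4 with a floor, 0 with only those groups and 1 to 613 (613 without day 8 replicate A, with 0 to 1 members). Between days 10 and 8, members called fell to 1 with no filter, quantile, floor, mean of probe sets or only those groups, which gave 368 genes. Between days 12 and 10, members fell to 0 with no filter, quantile, mean of probe sets or only those groups (121 genes), and genes to 142 with a filter at 6, and leaving out arrays gave 155 to 480. Between days 12 and 4, members fell to 2 with no filter or quantile. Cdh5 has no value under the filter at 6.

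Same-letter deviations correlated at -0.21 to 0.32 (median 0.06), over 0.1 in 13 of 35 pairs. Deviations of different letters had a median of -0.03 and were over 0.1 in 7 of 71 pairs. Of 16 arrays 12 correlated best with their own letter, which is a hint from the data and not from the design. The letters were not taken as pairs, since not every pair was over 0.1 and the labels do not tie equal letters to one source. With the replicate block, 14 genes were called between days 8 and 6, and members called were 4, 5, 6, 6 and 7 at days 4 to 12 against growth. Over the block and the other settings without left-out arrays, 2104 to 2923 genes were called at day 4 and 2161 to 2934 at day 6. These ranges were 2531 to 3363 at day 8, 3195 to 4131 at day 10 and 3587 to 4626 at day 12. The block also ended the calls of Cdh6 at day 6 (adjusted p = 0.0635) and of Cdh5 from day 4 to day 12 (adjusted p = 0.0556), and called Cdh6 at day 12 (adjusted p = 0.0439) and from day 8 to day 10 (adjusted p = 0.0451).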

Other observations

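Other members of the cadherin superfamily also changed. Of 34 further cadherin-family genes 14 could be tested, with 5 higher and 3 lower at day 4 (13.3% and 13.6% of all genes) and 7 higher and 4 lower at day 12 (22.5% and 19.3% of all genes). Cdh10 and Cdh22, type II cadherins of the nervous system, were lower on every day, and Cdh10 was 6.01 in growth and 3.19 at day 6. Dsc2, a desmosomal cadherin that is also found in heart muscle, was 4.33 in growth and 9.14 at day 12 (28.0-fold, limma adjusted p = 1.19e-08). Fat4 and Dchs1, which bind each other between cells, were dim in growth and at 8.54 and 5.58 at day 12. Clstn2, a calsyntenin, was dim in growth and at 8.22 at day 12. Celsr1, a planar polarity cadherin, was 6.43 in growth and 9.23 at day 4. Ret, a receptor tyrosine kinase with cadherin-like domains, was 9.10 at day 4 and 5.29 at day 6. Of 12 protocadherins 7 could be tested, with 4 higher and 1 lower at day 4 (13.3% and 13.6% of all genes). Pcdh18 was 4.68 in growth and 9.70 at day 4 (32.5-fold, limma adjusted p = 1.12e-08). Pcdh7 and Pcdh19 were dim in growth and at 7.72 and 6.29 at day 4. Pcdh8, the paraxial protocadherin of early mesoderm, was called at day 4 only (mean 4.84 against 2.89 in growth). Its day 4 replicates disagreed, with A dim at 2.90 and B and C at 5.78 and 5.85. Pcdh17 was called at day 12 only (6.46 against 3.05).

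The nectins, immunoglobulin-type adhesion proteins that assemble beside cadherins, gave 3 tested genes of 4. Nectin3 was 10.03 in growth and 8.88 at day 4 (limma adjusted p = 0.00159), and limma called 0 nectins at later days, where at most 1 had an unadjusted p under 0.05. The 18S control probe sets had a group mean of 5.24 in growth and 8.37 at day 12, and the part of this in any difference at day 12 was not tested.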
